A study of Homo sapiens with 15 samples.

Results

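The genes described here are 10 components of the TGF-beta and SMAD pathway, chosen with earlier results of these data known. They were named by symbol and matched by Ensembl identifier among the 31352 genes of the deposited table. They are the ligand genes TGFB1 and TGFB2, the receptor genes TGFBR1 and TGFBR2, the decoy receptor gene BAMBI, the signal transducer gene SMAD3, the inhibitory SMAD genes SMAD6 and SMAD7, and the feedback genes SKIL and PMEPA1. All 10 were found, and 9 passed the filter on low counts and were tested. TGFB2 did not pass it.

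PolyA RNA-seq was made from human cells in 15 libraries, 3 in each of 5 groups. The control group carried an empty vector (EV). The other groups expressed, on doxycycline, the NOTCH intracellular domain (NICD) of human NOTCH1 (group NICD1), NOTCH2 (NICD2), NOTCH3 (NICD3) or NOTCH4 (NICD4), the part of the receptor that is released on activation and works in the nucleus with the DNA-binding protein RBPJ. Neither dose nor duration of doxycycline is labelled, nor whether it was added to EV cells. The cell line field reads HCT116, a colorectal carcinoma line, while the sample descriptions read U373, a glioma line. Other label fields of NICD4 replicate 1 say NICD3, and its title and description, followed here, say NICD4. Nothing says that replicates were separate cultures, so the p-values reflect library-to-library spread alone, which could be technical.

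TGF-beta ligands are secreted in a latent form and, once freed, bind the type II receptor TGFBR2, which phosphorylates the type I receptor TGFBR1. The type I receptor phosphorylates SMAD2 and SMAD3, which enter the nucleus with SMAD4 and bind short SMAD box motifs at target genes. Several direct targets feed back on the pathway. SMAD7 and SMAD6 block receptors and SMAD complexes, SKIL (SnoN) represses SMAD-bound genes, and PMEPA1 holds back receptor-activated SMADs. In colorectal epithelium the pathway restrains growth, and HCT116 is known to carry inactivating mutations of TGFBR2, which a read count does not show.

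The sequences before the start sites of SMAD6, SMAD7, SKIL and PMEPA1 are shown because these 4 feedback genes were lower in every NICD group. Each line gives the 250 bases before 1 RefSeq start site (GRCh38.p14), 5′ to 3′ on the gene's strand, with matches to 3 searched motifs in capitals. The motifs were the palindromic SMAD-binding element GTCTAGAC, the SMAD box CAGAC and the RBPJ motif GTGGGAA, searched on both strands. The positions are chr15:66701986-66702235 (plus strand) for SMAD6, chr18:48950966-48951215 (minus strand) for SMAD7, chr3:170357465-170357714 (plus strand) for SKIL and chr20:57710016-57710265 (minus strand) for PMEPA1.
SMAD6: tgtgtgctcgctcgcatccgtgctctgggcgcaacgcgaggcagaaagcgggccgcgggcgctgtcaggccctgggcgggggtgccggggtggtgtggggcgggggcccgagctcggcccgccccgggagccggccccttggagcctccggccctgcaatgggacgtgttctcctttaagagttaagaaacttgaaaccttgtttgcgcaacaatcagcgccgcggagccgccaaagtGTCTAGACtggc
SMAD7: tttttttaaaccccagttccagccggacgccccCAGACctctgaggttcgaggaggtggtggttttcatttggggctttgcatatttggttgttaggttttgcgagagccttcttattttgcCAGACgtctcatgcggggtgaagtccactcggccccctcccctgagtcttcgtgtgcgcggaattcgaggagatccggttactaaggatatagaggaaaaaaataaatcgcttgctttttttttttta
SKIL: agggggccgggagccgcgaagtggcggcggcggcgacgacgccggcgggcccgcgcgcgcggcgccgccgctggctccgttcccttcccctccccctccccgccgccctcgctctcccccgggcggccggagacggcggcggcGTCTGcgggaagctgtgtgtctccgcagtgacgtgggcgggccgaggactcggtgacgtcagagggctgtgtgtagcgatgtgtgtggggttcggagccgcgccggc
PMEPA1: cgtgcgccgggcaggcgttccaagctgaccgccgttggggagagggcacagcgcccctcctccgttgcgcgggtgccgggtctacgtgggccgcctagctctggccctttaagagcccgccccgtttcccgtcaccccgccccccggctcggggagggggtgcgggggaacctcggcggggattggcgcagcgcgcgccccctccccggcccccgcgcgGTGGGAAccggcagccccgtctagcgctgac

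The palindrome lies 12 to 5 bases before the SMAD6 start and is found in 0.182% of all 35116 windows of this length. It is in 1 of the 27 windows of the 10 genes. The SMAD box is common, with a match in 38% of all windows and in 13 of these 27. Overlapping windows of TGFBR1 share a match, so the windows are not independent. SMAD7 holds the SMAD box 217 to 213 and 128 to 124 bases before the start shown, and SKIL 107 to 103 bases before its start, on the other strand. SMAD7 has 3 starts, of which another holds the box 193 to 189 bases before it and the last holds none. The PMEPA1 start shown is the one with the RBPJ motif and holds no SMAD box. PMEPA1 starts not shown hold the box 115 to 111 and 71 to 67 bases before them. The RBPJ motif is in 5.43% of all windows and in 2 of the 27, at 1 of the 4 PMEPA1 starts (31 to 25 bases before it, shown) and at 1 of the 5 SMAD3 starts (218 to 212 bases before it). The windows of TGFB1 and TGFBR2 held none of the 3 motifs. These matches describe letters, not binding.

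Libraries held 11630195 to 27704492 counted reads. Levels below are reads divided by the trimmed-mean scaled size of the library in megareads (scaled CPM), for each of n = 3 libraries or as their mean. Each change is a difference on the log2 scale with its SE, estimated by limma, and its p was adjusted (Benjamini-Hochberg) across 15122 tested genes. Genes with an adjusted p below 0.05 are named as called. The NOTCH target HES1 rose in each NICD group, with mean levels of 19.4 (EV), 39.6, 104.8, 48.7 and 57.1 CPM, and with every NICD library above EV. Changes of NOTCH1 in NICD1 (-0.10), NOTCH3 in NICD3 (0.17) and NOTCH4 in NICD4 (0.28) were not called. With the GC trend described below removed, NOTCH1 in NICD1 (-0.90) and NOTCH3 in NICD3 (-0.43) were called lower. NOTCH4 in NICD4 (-0.43) was again not called. NOTCH2 was called higher in NICD2 (0.42), but also in NICD1 (0.22) and NICD4 (0.36). These genes therefore do not check which NICD a group expressed. In EV the epithelial surface gene EPCAM had a level of 152 CPM, the keratin genes KRT8, KRT18 and KRT19 of 1062, 393 and 703 CPM, and the intestinal factor gene CDX2 of 17.8 CPM, while the colorectal genes CDX1, CEACAM5 and GPA33 were at or near 0. The glial genes AQP4, OLIG2 and SOX2 were at or near 0, GFAP had 1.63 CPM, and NES and SLC1A3, also glial markers of the list, had 29.7 and 20.3 CPM. Changes also followed transcript GC content in all genes: medians in the lowest GC class (5 equal classes) were -0.67, -0.34, -0.54 and -0.88 in NICD1 to NICD4, and in the highest 0.70, 0.37, 0.55 and 0.98. Values after removal of this trend are therefore given for some genes and lists, but not for every one that differs in call or size. A change printed without such a value may also depend on the trend. The verbs rose and fell are kept for called genes whose 3 NICD libraries did not overlap the EV libraries, unless an overlap is stated.

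The same 6 genes fell in all 4 NICD groups: TGFBR1, TGFBR2, SMAD6, SMAD7, SKIL and PMEPA1. Against EV, 6, 7, 6 and 6 of the 9 tested were called lower in NICD1 to NICD4, where 39.8%, 30%, 36.2% and 43.6% of all tested genes were. Called higher were 1, 1, 0 and 2 of the 9, where 35.6%, 29.6%, 33% and 37.3% of all tested genes were. In NICD3, where none was called higher by limma, none was higher at an unadjusted p under 0.05 or with voom weights either. The median change of the 9 was -1.24, -1.86, -1.61 and -1.77, beside -0.08, -0.03, -0.07 and -0.12 over all tested genes. The 4 comparisons share the EV libraries, so their likeness is no independent support. In bulk RNA, fewer cells of a type and less RNA per cell cannot be told apart.

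**Figure D1:**
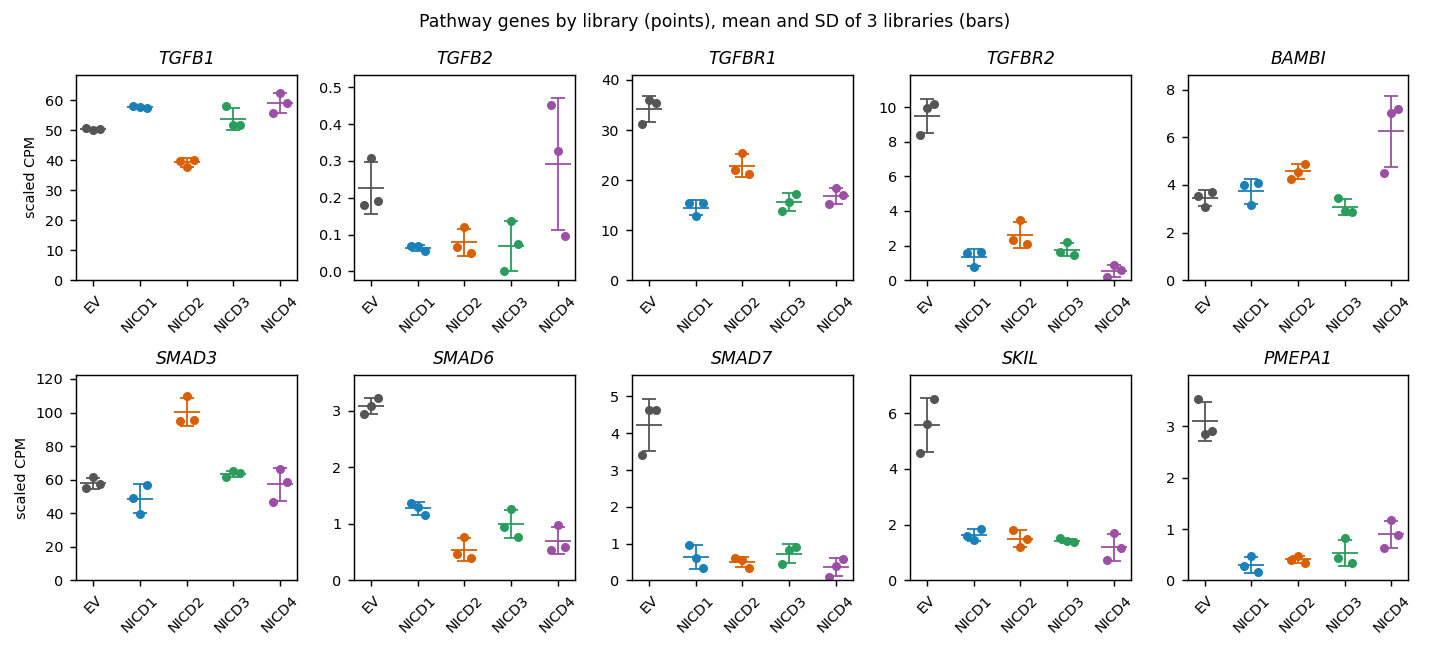
Scaled CPM (y axis, linear, its own range for each gene) of the 10 pathway genes in the 5 groups (x axis); points are libraries, and bars the mean and SD of 3 libraries. TGFBR1, TGFBR2, SMAD6, SMAD7, SKIL and PMEPA1 lie lower in every NICD library than in any EV library, SMAD3 is highest in NICD2, and TGFB2 lies under 0.5 CPM throughout.

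Among the ligands, TGFB1 (ENSG00000105329, chromosome 19, 41836813 to 41859831, GRCh37), the main TGF-beta of most tissues, was the most abundant of the 10 genes per length, at 15.6 CPM per kb in EV. Its libraries stood at 50.8, 50.2 and 50.5 CPM in EV, at 58.1, 57.8 and 57.4 in NICD1, at 39.8, 37.7 and 40.2 in NICD2, at 58.0, 51.9 and 51.7 in NICD3, and at 55.7, 62.3 and 59.0 in NICD4. The NICD2 libraries lay below all others, and those of NICD1, NICD3 and NICD4 lay above EV. The changes were small, 0.19 ± 0.07 in NICD1 (adjusted p = 0.02), -0.36 ± 0.07 in NICD2 (adjusted p = 0.00043), 0.09 ± 0.07 in NICD3 (adjusted p = 0.25) and 0.22 ± 0.07 in NICD4 (adjusted p = 0.0081). TGFB1 transcripts have 61.4% GC, above 88.3% of tested genes. With the GC trend removed TGFB1 was called lower in all 4 groups, by -0.46, -0.695, -0.43 and -0.68 in NICD1 to NICD4. Scaling by library totals alone also turned the signs of NICD1, NICD3 and NICD4, to -0.26, -0.33 and -0.32. The NICD1 rise was lost without EV replicate 1, 2 or 3 (0.17, 0.16 and 0.16, adjusted p = 0.072, 0.083 and 0.094).

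TGFB2 (ENSG00000092969), a second ligand, had too few reads to test: 4, 10 and 5 in the EV libraries, 1, 1 and 1 in NICD1, 1, 3 and 1 in NICD2, 0, 3 and 2 in NICD3, and 5, 5 and 1 in NICD4. The scaled EV level was 3.73 times that of NICD1 (95% exact binomial counting interval 1.1 to 19.7), 2.83 times that of NICD2 (1.02 to 9.7), 3.07 times that of NICD3 (1.11 to 10.5) and 0.786 times that of NICD4 (0.356 to 1.83). These intervals cover counting error only. The kit usually does not mark strand, so reads from an overlapping antisense gene, here or at the other loci, cannot be told apart.

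Both receptor genes fell. TGFBR2 (ENSG00000163513, chromosome 3, 30647994 to 30735634), the ligand-binding type II receptor, stood at 8.38, 9.97 and 10.2 CPM in the EV libraries. It stood at 1.58, 0.75 and 1.64 CPM in NICD1, at 2.34, 3.47 and 2.07 in NICD2, at 1.64, 2.17 and 1.47 in NICD3, and at 0.181, 0.848 and 0.583 in NICD4. No NICD library came near EV, and the NICD4 libraries, with 2, 13 and 6 reads, were below all those of NICD2 and NICD3. TGFBR2 was 7.3-fold lower than EV in NICD1 (-2.87 ± 0.41, adjusted p = 1.9e-05), 3.64-fold in NICD2 (-1.87 ± 0.41, adjusted p = 0.0013), 5.32-fold in NICD3 (-2.41 ± 0.41, adjusted p = 0.00011) and 18.6-fold in NICD4 (-4.21 ± 0.41, adjusted p = 3.5e-07). In NICD4 1.65% of tested genes had a lower change than TGFBR2. The NICD4 level was also lower than that of NICD2 by -2.35 (adjusted p = 0.00025) and of NICD3 by -1.80 (adjusted p = 0.0029), where 0.423% and 0.886% of tested genes had a lower difference. Against NICD1 the difference of -1.35 was called (adjusted p = 0.026), but libraries overlapped, and the call was lost without NICD1 replicate 1 (-1.19, adjusted p = 0.098), NICD1 replicate 3 (-1.16, adjusted p = 0.11) or NICD4 replicate 1 (-0.79, adjusted p = 0.11).

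TGFBR1 (ENSG00000106799, chromosome 9, 101866320 to 101916474), the type I receptor kinase, stood at 31.2, 36.0 and 35.5 CPM in EV. It stood at 15.3, 12.8 and 15.4 CPM in NICD1, at 21.96, 25.5 and 21.2 in NICD2, at 13.8, 15.6 and 17.3 in NICD3, and at 15.3, 18.4 and 16.9 in NICD4. NICD2 lay between EV and the other 3 groups without overlap. The changes against EV were -1.24 ± 0.12, -0.58 ± 0.12, -1.14 ± 0.12 and -1.02 ± 0.12 in NICD1 to NICD4 (adjusted p = 3.7e-07, 0.00062, 1.1e-06 and 1.5e-06). NICD2 exceeded NICD1 by 0.66 (adjusted p = 0.00098), and NICD3 and NICD4 were below NICD2 by -0.55 and -0.44 (adjusted p = 0.0049 and 0.0043). TGFBR1 transcripts are poor in GC (39.7%, above 8.91% of tested genes). With the GC trend removed the changes against EV shrank to -0.58, -0.24, -0.60 and -0.14, that of NICD4 was no longer called (adjusted p = 0.071), and the NICD4 to NICD2 difference turned to 0.10.

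BAMBI (ENSG00000095739, chromosome 10, 28966271 to 28971868), a receptor-like decoy without a kinase domain, rose in NICD4 alone among the calls against EV. Its libraries stood at 3.53, 3.09 and 3.71 CPM in EV, at 3.98, 3.14 and 4.10 in NICD1, at 4.27, 4.56 and 4.88 in NICD2, at 3.46, 2.90 and 2.87 in NICD3, and at 4.52, 7.04 and 7.19 in NICD4. The NICD4 change was 0.82 ± 0.18 (adjusted p = 6e-04), and 24.8% of tested genes had a higher one. NICD4 exceeded NICD1 by 0.71 (adjusted p = 0.011) and NICD3 by 0.98 (adjusted p = 0.00082). The NICD2 change of 0.40 ± 0.18 was not called (adjusted p = 0.062), although all 3 libraries lay above EV, and it was called without NICD4 replicate 1 (0.40, adjusted p = 0.021). With library totals alone the NICD4 change was 0.29 (adjusted p = 0.21). NICD3 was called lower than NICD2 by -0.57 (adjusted p = 0.045), a call lost without EV replicate 1 or 3, NICD1 replicate 1 or 3, or any NICD2 or NICD3 library (-0.65 to -0.51, adjusted p = 0.051 to 0.12).

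SMAD3 (ENSG00000166949, chromosome 15, 67356101 to 67487533), the transducer that carries the TGF-beta signal to DNA, was highest in NICD2. Its libraries stood at 55.1, 61.4 and 57.2 CPM in EV, at 49.4, 39.8 and 56.8 in NICD1, at 95.2, 109.9 and 95.5 in NICD2, at 61.7, 65.2 and 64.0 in NICD3, and at 46.9, 66.2 and 58.8 in NICD4. The NICD2 libraries lay above all 12 others, while EV overlapped NICD1 and NICD4. SMAD3 rose 1.73-fold in NICD2 (0.79 ± 0.13, adjusted p = 0.00014), and 13.8% of tested genes had a higher change. NICD2 exceeded NICD1 by 1.05 (adjusted p = 5.1e-05), and NICD3 and NICD4 were below it by -0.65 and -0.82 (adjusted p = 0.0038 and 0.00014). The changes in NICD1 (-0.27 ± 0.13, adjusted p = 0.077), NICD3 (0.14 ± 0.13, adjusted p = 0.36) and NICD4 (-0.03 ± 0.13, adjusted p = 0.85) were not called. With the GC trend removed NICD2 kept a rise of 0.66, and NICD1 was called lower by -0.48 (adjusted p = 0.0061). With library totals NICD1 (-0.72, adjusted p = 0.0023) and NICD4 (-0.57, adjusted p = 0.0093) were called lower. The NICD1 change was also called without NICD1 replicate 3 (-0.38, adjusted p = 0.018) or NICD4 replicate 1 (-0.27, adjusted p = 0.034).

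SMAD7 (ENSG00000101665, chromosome 18, 46446223 to 46477081), which recruits ubiquitin ligases to the receptors and carries the SMAD boxes shown above, had 75, 150 and 121 reads in the EV libraries and at most 25 in any NICD library. Its levels were 3.40, 4.63 and 4.63 CPM in EV, 0.962, 0.614 and 0.328 in NICD1, 0.601, 0.565 and 0.345 in NICD2, 0.441, 0.815 and 0.921 in NICD3, and 0.0904, 0.391 and 0.583 in NICD4. Every NICD library lay far below EV, and the NICD groups overlapped each other. SMAD7 was 6.64-fold lower in NICD1 (-2.73 ± 0.49, adjusted p = 0.00015), 7.76-fold in NICD2 (-2.96 ± 0.49, adjusted p = 0.00014), 5.65-fold in NICD3 (-2.50 ± 0.49, adjusted p = 0.00038) and 12.3-fold in NICD4 (-3.62 ± 0.49, adjusted p = 7.8e-06). A difference among the 4 NICD groups was not called (F-test, adjusted p = 0.2), and the intervals were wide: NICD4 minus NICD3 spanned -2.16 to -0.08.

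SMAD6 (ENSG00000137834, chromosome 15, 66994670 to 67074338), the inhibitory SMAD that acts mainly on the BMP branch and whose window holds the palindrome, stood at 2.94, 3.09 and 3.22 CPM in EV. It stood at 1.37, 1.296 and 1.15 CPM in NICD1, at 0.467, 0.767 and 0.395 in NICD2, at 0.944, 1.27 and 0.774 in NICD3, and at 0.542, 0.978 and 0.583 in NICD4. The changes were -1.24 ± 0.27, -2.44 ± 0.27, -1.61 ± 0.27 and -2.10 ± 0.27 in NICD1 to NICD4 (adjusted p = 8e-04, 3.7e-06, 0.00012 and 5.4e-06). NICD2 was below NICD1 without overlap, by -1.20 (adjusted p = 0.0051). NICD4 was below NICD1 by -0.85 (adjusted p = 0.032), a call lost without any NICD1 library or without NICD4 replicate 1 or 3 (-0.92 to -0.71, adjusted p = 0.053 to 0.12). SMAD6 transcripts are rich in GC (60.1%), and with that trend removed the falls were -1.81, -2.73, -2.06 and -2.89.

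SKIL (ENSG00000136603, chromosome 3, 170075466 to 170114623), the nuclear corepressor SnoN, stood at 4.58, 5.62 and 6.51 CPM in EV. It stood at 1.58, 1.43 and 1.86 CPM in NICD1, at 1.80, 1.21 and 1.48 in NICD2, at 1.51, 1.40 and 1.36 in NICD3, and at 0.723, 1.70 and 1.17 in NICD4. The NICD libraries formed 1 overlapping range well below EV. SKIL was 3.34-, 3.63-, 3.76- and 4.7-fold lower in NICD1 to NICD4, by -1.74 ± 0.26, -1.86 ± 0.26, -1.91 ± 0.26 and -2.23 ± 0.26 (adjusted p = 2.6e-05, 2.8e-05, 1.4e-05 and 1.6e-06). A difference among the NICD groups was not called (adjusted p = 0.33), except without NICD4 replicate 2 (adjusted p = 0.049). SKIL has the lowest GC content of the 10 genes (37.2%, above 2.06% of tested genes), and with the trend removed the falls were -0.98, -1.46, -1.28 and -1.24, all still called.

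PMEPA1 (ENSG00000124225, chromosome 20, 56223448 to 56286592), a membrane protein that sequesters receptor-activated SMADs, stood at 3.53, 2.84 and 2.91 CPM in EV. It stood at 0.275, 0.477 and 0.164 CPM in NICD1, at 0.401, 0.484 and 0.345 in NICD2, at 0.441, 0.815 and 0.332 in NICD3, and at 0.633, 1.17 and 0.875 in NICD4. The NICD4 libraries lay above those of NICD1 and NICD2, and all lay below EV. PMEPA1 was 9.3-, 6.8-, 5.7- and 3.4-fold lower in NICD1 to NICD4, by -3.22 ± 0.36, -2.77 ± 0.36, -2.51 ± 0.36 and -1.77 ± 0.36 (adjusted p = 2.1e-06, 1.6e-05, 2.5e-05 and 0.00035). NICD4 exceeded NICD1 by 1.45 (adjusted p = 0.0098, lost without NICD1 replicate 3, where it was 1.14 with adjusted p = 0.055) and NICD2 by 1.00 (adjusted p = 0.024, lost without NICD2 replicate 1 or 3 or NICD4 replicate 2 or 3, at 0.80 to 1.00 with adjusted p = 0.052 to 0.089). The order of the groups thus differed from that of TGFBR2, which was lowest in NICD4.

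**Figure D2:**
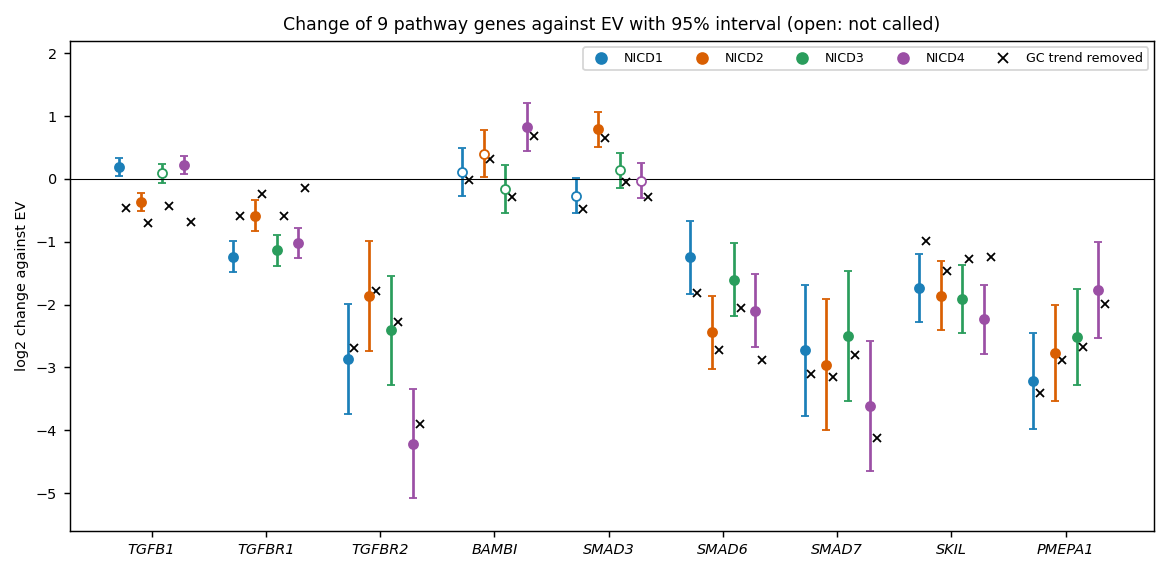
Log2 change against EV (y axis) of the 9 tested pathway genes (x axis) in NICD1 to NICD4 from limma; bars are 95% intervals, filled points are called, and crosses give the change with the GC trend removed. TGFBR2, SMAD6, SMAD7, SKIL and PMEPA1 stay below -0.9 with and without the trend, whereas TGFB1 changes sign in NICD1, NICD3 and NICD4.

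Among the 4 NICD groups, 7 of the 9 genes differed by the F-test, beside 67.9% of all tested genes, with SMAD7 and SKIL the exceptions. Between pairs, 4 of 9 were called for NICD2 against NICD1 (37.2% of all tested genes), 4 for NICD4 against NICD1 (27.2%), 4 for NICD3 against NICD2 (15%), 5 for NICD4 against NICD2 (63.5%) and 2 for NICD4 against NICD3 (49%). For NICD3 against NICD1, limma called none of the 9 (6.72% of all tested genes), 1 had an unadjusted p under 0.05, and voom weights called none. Single libraries moved some of these counts: without NICD1 replicate 1, NICD1 replicate 3 or NICD4 replicate 1, NICD4 against NICD1 gave 2, 1 and 2. NICD4 against NICD3 gave 4 without NICD3 replicate 1 or NICD4 replicate 2, and 6 with the GC trend removed. NICD3 against NICD1 gave 1 without NICD1 replicate 3, NICD4 replicate 1 or NICD4 replicate 2. The F-test call of PMEPA1 (adjusted p = 0.015) was lost without NICD4 replicate 2 (adjusted p = 0.059).

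**Figure D3:**
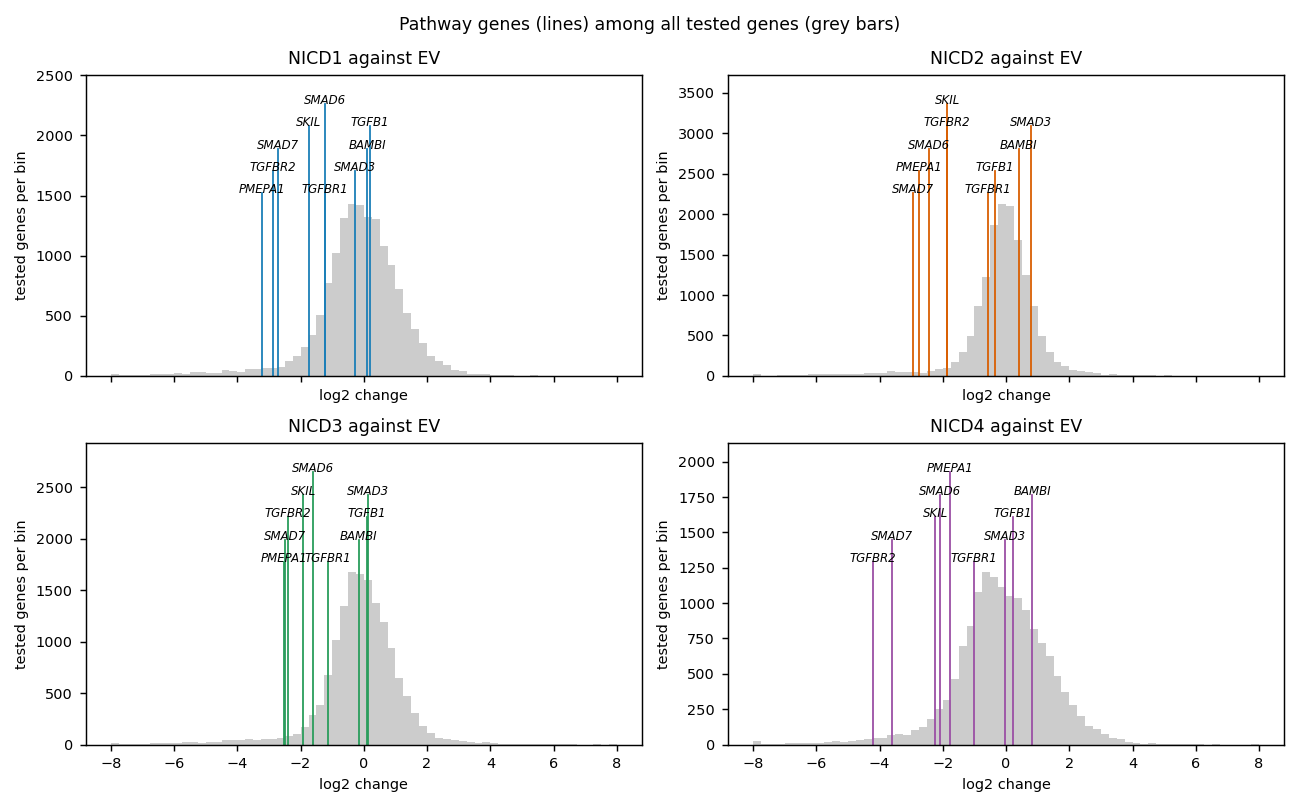
Number of tested genes (y axis) by log2 change against EV (x axis, bins of 0.25, the end bins holding all changes beyond 8) for each NICD group; coloured lines mark the 9 pathway genes. TGFBR2, SMAD7 and PMEPA1 lie in the lower tail, and SMAD3, TGFB1 and BAMBI in the body of the distribution. PMEPA1 lies less far out in NICD4, where 9.94% of tested genes had a lower change.

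Per kb of exon, which allows genes to be compared, the EV levels ran from TGFB1 (15.6 CPM per kb) through SMAD3 (6.36), TGFBR1 (5.00), TGFBR2 (2.02), BAMBI (1.49), SMAD7 (0.839), SKIL (0.715), PMEPA1 (0.551) and SMAD6 (0.36) to TGFB2 (0.0441). TGFBR1 transcripts thus exceeded TGFBR2 transcripts per length in EV.

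Other genes of the pathway were taken from lists that hold none of the 10, also chosen with earlier results of these data known. Of 9 tested receptors and coreceptors, 7, 6, 7 and 7 were called lower in NICD1 to NICD4 and 1, 0, 0 and 1 higher, with medians of -1.04, -0.91, -1.13 and -1.24, where 39.8%, 30%, 36.2% and 43.6% of all tested genes were called lower. Removing the GC trend left 6, 5, 6 and 5 called lower, with medians of -0.92, -0.58, -0.77 and -0.71. The activin and BMP receptor genes ACVR1, BMPR1A and BMPR2 and the endothelial coreceptor gene ENG fell in all 4 groups, also under the other scalings and, for BMPR1A and BMPR2 by less (-0.58, -0.65, -0.70 and -0.72, and -0.92, -0.58, -0.86 and -0.71), with the GC trend removed. ACVR1 went from 10.1 CPM in EV to 2.75, 4.02, 3.33 and 2.19 (-1.86 ± 0.15 in NICD1, adjusted p = 1.1e-07). ENG went from 4.72 CPM to 1.07, 0.753, 1.17 and 2.08 (-2.58 ± 0.31 in NICD2, adjusted p = 8e-06). The exception was ACVR2B, an activin type II receptor, which rose from 2.93 CPM to 6.47 in NICD1 (1.11 ± 0.22, adjusted p = 0.00042) and 8.45 in NICD4 (1.495 ± 0.22, adjusted p = 2.2e-05).

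The list of other SMAD transducers holds SMAD1, SMAD2, SMAD4, SMAD5, SMAD9 and the SMAD adaptor gene ZFYVE9, of which 6, 5, 6 and 5 were called lower in NICD1 to NICD4. The shares of all tested genes called lower were 39.8%, 30%, 36.2% and 43.6%. After removal of the GC trend 2, 3, 2 and 1 of the 6 were called lower, and 1, 0, 0 and 2 higher. SMAD9, a BMP-branch transducer, fell under every scaling tried, from 2.75 CPM to 1.27, 1.41, 0.951 and 1.23 (-1.52 ± 0.26 in NICD3, adjusted p = 0.00011). SMAD2, the partner of SMAD3, went from 63.9 CPM to 41.7, 53.0, 43.8 and 34.0, but its changes with the GC trend removed were 0.02, 0.05, -0.02 and -0.06. SMAD4, the common partner, stood at 40.8 CPM in EV and at 35.1, 34.3, 31.4 and 38.4 CPM. With the trend removed, its falls in NICD1, NICD2 and NICD3 turned to 0.38 (called higher), 0.05 and 0.11. Its change in NICD4 went from -0.09, not called, to 0.71, called higher.

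Of 11 tested ligand and latency genes, 7, 4, 6 and 4 were called higher in NICD1 to NICD4 and 2, 2, 2 and 1 lower, with medians of 0.76, 0.25, 0.37 and 0.39. Of all tested genes 35.6%, 29.6%, 33% and 37.3% were called higher. With library totals 4, 3, 4 and 3 were called higher and 2, 3, 3 and 4 lower, and the medians were 0.33, -0.02, -0.05 and -0.13. LTBP3, which binds latent TGF-beta in the matrix, rose from 66.2 (EV) to 427, 264, 310 and 511 CPM (2.93 ± 0.20 in NICD4, adjusted p = 1.5e-08), and by 1.79, 1.54, 1.55 and 1.74 with the GC trend removed. GDF15, a distant ligand of the family, rose from 39.6 CPM to 124, 54.9, 155 and 130 CPM (in NICD2 by 0.47, but with the GC trend removed the change there was 0.18 and not called). INHBB, an activin subunit gene, had 2 to 3 reads in each EV library and passed the filter only through the NICD groups, so its levels of 0.0866 CPM in EV and 0.497, 0.486, 0.719 and 0.694 CPM are given without a test, though the counts above include it. LTBP4, a relative of LTBP3, fell in NICD1 (-0.34 ± 0.08, adjusted p = 0.001), NICD2 (-0.87 ± 0.08, adjusted p = 3.3e-07) and NICD3 (-0.42 ± 0.08, adjusted p = 0.00026). Its change in NICD4 was -0.03 (adjusted p = 0.73), and with the GC trend removed LTBP4 was called lower in all 4 groups, by -1.25, -1.34, -1.12 and -1.25.

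Of 14 other negative regulators, 5, 5, 6 and 5 were called higher and 5, 4, 6 and 8 lower. The shares of all tested genes were 35.6%, 29.6%, 33% and 37.3% higher and 39.8%, 30%, 36.2% and 43.6% lower. With library totals 5, 4, 1 and 4 were called higher and 8, 7, 8 and 9 lower. All genes also shifted with library totals: 3308, 2847, 3014 and 3651 of 15122 were called higher and 8486, 6661, 8258 and 8867 lower. SKI, the closest relative of SKIL, fell from 44.2 CPM to 32.9, 35.0, 28.1 and 32.6, with NICD2 overlapping EV, and its changes of -0.41, -0.33, -0.64 and -0.43 were -1.002, -0.63, -1.11 and -1.25 with the GC trend removed. CTDSPL, a SMAD phosphatase, rose from 44.2 CPM to 70.8, 69.0, 70.7 and 72.1. SMURF2, a ubiquitin ligase that SMAD7 recruits, rose from 26.7 CPM to 58.1 in NICD2 (1.11 ± 0.16, adjusted p = 4.3e-05) and to 40.2 in NICD3 (a call lost with library totals), and fell to 16.1 in NICD4 (-0.75 ± 0.16, adjusted p = 0.00055). The NICD4 change was 0.04 with the GC trend removed.

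Of 25 tested genes that TGF-beta is known to induce, 8, 9, 7 and 10 were called higher and 12, 10, 9 and 11 lower, with medians of -0.36, 0.09, -0.29 and -0.22. The counts include COL3A1, whose changes were -6.62, -6.62, -6.62 and -6.13. COL3A1 was at or near 0 in every NICD group and passed the filter only through EV, so its lower calls are not read as a result. The shares of all tested genes were 35.6%, 29.6%, 33% and 37.3% higher and 39.8%, 30%, 36.2% and 43.6% lower. Removing the GC trend gave 7, 8, 7 and 6 called higher and 16, 10, 14 and 15 lower, with medians of -0.62, -0.12, -0.39 and -0.65. With library totals, 6, 6, 5 and 7 were called higher and 16, 10, 14 and 15 lower, where 8486, 6661, 8258 and 8867 of all 15122 tested genes were called lower. The metalloprotease gene ADAM19 fell from 28.98 CPM to 1.85, 4.63, 3.83 and 3.26, the repressor gene KLF11 from 24.1 CPM to 10.9, 11.7, 10.7 and 6.30, and the chromatin gene HMGA2 from 98.6 CPM to 45.4, 48.2, 42.8 and 31.2. PDGFB, a growth factor gene, rose from 5.22 CPM to 30.2, 25.6, 33.5 and 12.5 (in NICD4 by 1.25, and by 0.42 with the GC trend removed), and ANGPTL4 from 1.29 CPM to 7.18, 5.33, 4.87 and 8.43. CDKN2B, the cell cycle inhibitor p15, rose in NICD2 (3.82 to 7.60 CPM, 0.98 ± 0.16, adjusted p = 0.00013) and fell in NICD1 and NICD3 (-1.15 ± 0.16 and -0.92 ± 0.16, adjusted p = 1.6e-05 and 0.00015).

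**Figure D4:**
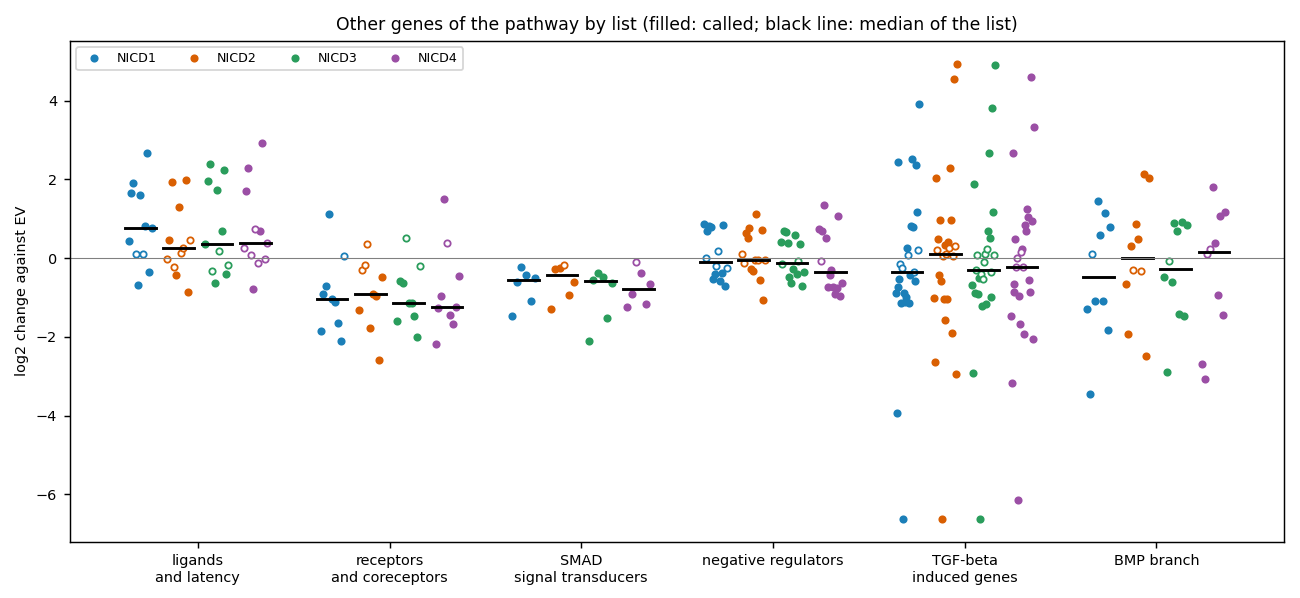
Log2 change against EV (y axis) of the tested genes in 6 lists (x axis) in NICD1 to NICD4; each point is a gene, filled where called, and black lines are list medians. Receptors and SMAD transducers lie mostly below 0, ligand and latency medians above it (below it in NICD2, NICD3 and NICD4 with library totals, not drawn), and TGF-beta induced genes on both sides.

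Marker genes of cell state moved in the same libraries. For the counts that follow, the shares of all tested genes were 35.6%, 29.6%, 33% and 37.3% called higher and 39.8%, 30%, 36.2% and 43.6% lower. Of 12 tested colorectal epithelial markers, 9, 9, 10 and 9 were called higher in NICD1 to NICD4 and 1, 1, 1 and 0 lower, and the summed level of the 16 found was 2163 to 2742 CPM in EV, and 12730 to 15800, 9774 to 11460, 18670 to 23480 and 11080 to 15840 CPM in the 4 NICD groups in order. The keratin genes KRT8, KRT18 and KRT19 made up most of the EV sum. Called lower were VIL1 in NICD1 (-1.08) and NICD3 (-1.80), and KRT20 in NICD2 (-0.71). Of 7 tested fibroblast and mesenchymal markers, 4, 5, 4 and 4 were lower and 1, 1, 2 and 2 higher, with sums over the 12 found of 199.9 to 275.1, 183 to 262, 103 to 136, 689 to 938 and 492 to 751 CPM in EV and NICD1 to NICD4. The counts called lower include COL3A1, which passed the filter only through EV. Sums follow the abundant genes of a list. VIM and ZEB1 were called lower in all 4 groups, while S100A4 was called higher in NICD3 (2.08) and NICD4 (1.73). DCN, LUM and PDGFRA, which define fibroblasts, were at or near 0 in every group. Of 5 tested glial markers, 1, 2, 3 and 3 were higher and 2, 3, 1 and 0 lower, with sums over the 11 found of 55.6 to 58.3, 48.4 to 52.7, 76.5 to 81.6, 82.5 to 86.6 and 63.8 to 87.1 CPM. The part of these states in the changes of the pathway genes was not tested.

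By Pearson correlation of log2 levels over the 15 libraries, the tested genes (average log2 CPM of at least 1) most like each pathway gene were as follows. These libraries share group means and GC trends, so the values only describe likeness. TGFBR2 was most like SEC23IP, FAM168B and SLC25A43 (r = 0.991, 0.990 and 0.989), TGFBR1 like GFPT1, RAB3GAP2 and AKAP12 (r = 0.984, 0.983 and 0.981), and SMAD7 like KDSR, SMCHD1 and KLHL9 (r = 0.979, 0.955 and 0.948). SMAD3 was most like SLC1A3, GLRX and LIMA1 (r = 0.958, 0.956 and 0.949), SMAD6 like MAP3K12 and G3BP2 (r = 0.950 and 0.932), and SKIL like TOP2A, AGO4 and SESN1 (r = 0.970, 0.968 and 0.963). PMEPA1 was most like HPX, TP53INP1 and GPC2 (r = 0.939, 0.927 and 0.923), TGFB1 like STMN3, NEURL1B and RHBDL3 (r = 0.960, 0.956 and 0.950), and BAMBI like TBX3, LOXL1-AS1 and HBEGF (r = 0.896, 0.846 and 0.833). None of these genes is one of the 10.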

How the data were processed

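RNA was measured by polyA RNA-seq in 15 libraries. The deposited values, per the file headers, are log2 of 1 plus the reads counted for a gene: undoing the logarithm gave whole numbers within 0.001 for 100% of values. The submitters' processing notes name the aligner TopHat2 2.0.6, the counter HTSeq and the build GRCh37. Libraries held 11630195 to 27704492 counted reads. Gene positions are those of the file (GRCh37), GC content and exon length come from GENCODE on GRCh38, and start site sequences come from RefSeq (GRCh38.p14).

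The filter kept 15122 genes that reached 10 reads (at median depth) in 3 libraries and 15 reads in sum. Counts were scaled by the trimmed mean of M values, log2 transformed after adding 1 (0.0544 CPM, which understates changes of low genes) and fitted with 1 mean per group in limma 3.58.1 with a trended, robust prior (statmod 1.5.0, R 4.3.3). Tests were two-sided, with Benjamini-Hochberg adjustment for each comparison. The fit was tested on simulated data. The genes and lists were chosen with earlier results of these data known. Named were all 10 genes, genes of the lists, and the 3 genes most like each tested one, of which a few genes are not reported here. Replicate numbers were checked for pairing and did not pair the samples consistently over the 5 groups. The GC trend was removed per library by loess (span 0.3) as an alternative.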

Additional observations from a re-analysis of the deposited data

Results flagged for a closer look

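TGFB1 was looked at again because its changes against EV were called in opposite directions, higher in NICD1 and NICD4 and lower in NICD2, and the differences themselves were called by limma. The effect of NICD2 minus that of NICD1 was -0.56 (adjusted p = 5.1e-05), and the effect of NICD4 minus that of NICD2 was 0.59 (adjusted p = 1.6e-05). With the GC trend removed, these differences were -0.24 (adjusted p = 0.075) and 0.02 (adjusted p = 0.9). Groups of 3 libraries are too small for the check of single libraries that stand apart.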

How the results depend on the processing

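Over all settings that kept every library, 699 of 740 values of single genes kept direction and side of the threshold, and 927 of 960 when 1 library was left out. The counts called lower stayed within 1.5 times, and so did the F-test count. Of the genes called higher, NICD1 kept 0 with library totals, without the filter, and with the GC trend removed with or without the replicate block, and 0 to 1 when 1 library was left out (0 without EV replicate 1, 2 or 3). NICD2 had 2 with voom weights or with only EV and NICD2 in the fit, and 1 to 2 when 1 library was left out (2 without NICD4 replicate 1). NICD4 had 0 with library totals and 1 without the filter or with the GC trend removed, with or without the block. Replicate numbers did not pair the samples consistently (correlations of same-numbered pairs -0.43 to 0.36, median 0.05, 13 of 30 over 0.1). Differently numbered pairs had -0.40 to 0.41, median -0.04, with 19 of 60 over 0.1. For replicates 1 and 2, same-numbered pairs among EV, NICD2, NICD3 and NICD4 were all positive (0.14 to 0.36), and those with NICD1 all negative. The replicate block alone changed no count against EV, with 6, 7, 6 and 6 called lower, and took that of NICD3 against NICD2 from 4 to 5.

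Signs turned with library totals for TGFB1 (-0.26 in NICD1, -0.33 in NICD3, -0.32 in NICD4), BAMBI in NICD1 (-0.34) and SMAD3 in NICD3 (-0.28). With the GC trend removed, alike with the replicate block, they turned for TGFB1 (-0.46, -0.43 and -0.68 in the same order), BAMBI in NICD1 (-0.018), SMAD3 in NICD3 (-0.050) and TGFBR1 in NICD4 against NICD2 (0.10). SMAD3 in NICD4 was called lower with library totals (-0.57, adjusted p = 0.0093), was 0.016 with median-of-ratios factors, and -0.14 to 0.11 when 1 library was left out, with 0.0015 without EV replicate 2 and 0.11 without NICD4 replicate 1. The cause was not tested. Between NICD groups, the count called of 9 for NICD4 against NICD1 went from 4 to 2 with voom weights. With the GC trend removed, it went from 5 to 3 for NICD4 against NICD2 and from 2 to 6 for NICD4 against NICD3. Library totals moved the median of all genes to -0.53, -0.31, -0.48 and -0.66 in NICD1 to NICD4, and the share of calls that were higher from 47.2%, 49.6%, 47.7% and 46.1% to 28.1%, 29.9%, 26.7% and 29.2%. Depth limits SMAD7, PMEPA1, SMAD6 and TGFBR2 in the NICD groups, with as few as 1, 3, 6 and 2 reads in a library, and TGFB2 throughout.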

Other observations

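Genes of the BMP branch, which shares SMAD4 with TGF-beta signalling, were called in both directions. Of 10 tested, 4, 5, 4 and 4 were called higher and 5, 3, 5 and 4 lower in NICD1 to NICD4, with medians of -0.48, 0.01, -0.29 and 0.16. The shares of all tested genes were 35.6%, 29.6%, 33% and 37.3% higher and 39.8%, 30%, 36.2% and 43.6% lower. After removal of the GC trend, 3, 4, 4 and 3 were called higher and 6, 4, 6 and 7 lower, with medians of -0.74, -0.15, -0.59 and -0.73, so that the median turned in NICD2 and NICD4. The ligand gene BMP4 fell from 423 (EV) to 176, 269, 302 and 67.3 CPM (-2.68 ± 0.18 in NICD4 by limma, adjusted p = 1.1e-08). BMP6 went from 1.48 CPM to 0.114, 0.373, 0.172 and 0.195 CPM, and the homeobox gene MSX1 from 231.7 CPM to 64.8, 41.3, 83.5 and 84.7 CPM. In contrast, MSX2, its relative and also a known BMP target, rose from 4.46 CPM to 7.74, 18.4, 8.07 and 10.1 CPM (2.03 ± 0.12 in NICD2, adjusted p = 4.7e-09), and FSTL3, which encodes an activin-binding protein, from 15.0 CPM to 40.7, 27.3, 27.7 and 52.8 CPM. The FSTL3 rises of 1.45, 0.87, 0.90 and 1.81 shrank to 0.56, 0.42, 0.21 and 0.61 with the GC trend removed. BMP4, MSX1, MSX2 and FSTL3 kept their calls in all 4 groups under each of the other scalings and with the GC trend removed. The mean level of BMP6 exceeded the filter level of 0.548 CPM in EV alone. Its levels are therefore given without a test, though the counts above include it.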
